A study of Mus musculus with 6 samples.

Results

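The genes described here are Trp53, which encodes the tumour suppressor p53, and 9 genes known as targets of p53 in the mouse: Mdm2, Zmat3, Trp53inp1, Sesn1, Sesn2, Ccng1, Aen, Tnfrsf10b and Phlda3. They were taken by name from the platform annotation, which had to give a probe set 1 symbol. Of the 10 genes, 9 had such a probe set, 1 each, among 19938 genes tested. Trp53 itself had none and was not analysed here, so all values below are for targets.

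Both groups were cells of the mouse leukaemia line URE, infected with a lentivirus of the pSIH1-H1-copGFP type and sorted for green fluorescence. The 3 shControl arrays carried a hairpin against luciferase, and the 3 shHLX arrays carried a hairpin against Hlx, a homeobox gene whose part in blood cell differentiation and tumour formation was the subject of the study. URE is known as a myeloid leukaemia line from mice that lack an upstream regulatory element of Spi1, the PU.1 gene, so that deletion is shared by both groups; the labels name only the line. Both were grown with fetal bovine serum and with supernatants of WEHI and BHK cells, and no DNA-damaging agent is named. The sources used here do not give whether these cells hold an intact p53 gene. It is 1 cell line, and the labels do not say whether the replicates were separate infections, so p-values may reflect no more than technical spread.

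p53 is a transcription factor that is held at a low level by the ubiquitin ligase Mdm2, itself a p53 target, and is stabilised after DNA damage and other stress. It binds a response element made of a pair of 10-base units, and its targets include genes of cell cycle arrest, DNA repair, cell death, metabolism and its own feedback. In blood-forming cells p53 limits the expansion of damaged stem and progenitor cells, and it is lost in part of the myeloid leukaemias. Many of its targets also answer to other factors, such as ATF4 for Sesn2, so a target's transcript is not a readout of p53 alone.

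To show the sequence at the starts of these genes, the annotated promoter windows, from 250 bases before to 50 bases after a start site, were searched in RefSeq sequence of build GRCm38.p6. Windows were on hand for 6 of the 9 measured genes, and Zmat3, Trp53inp1 and Tnfrsf10b had no entry. The windows of Aen and Sesn2, which rose on the shHLX arrays, and of Ccng1 and Mdm2, which did not pass the test, are printed 5′ to 3′ on the strand of the gene, with matches to the p53 decamer consensus, and in Ccng1 the adjoining unit, in capitals.
Aen, chr7:78895808-78896107, + strand: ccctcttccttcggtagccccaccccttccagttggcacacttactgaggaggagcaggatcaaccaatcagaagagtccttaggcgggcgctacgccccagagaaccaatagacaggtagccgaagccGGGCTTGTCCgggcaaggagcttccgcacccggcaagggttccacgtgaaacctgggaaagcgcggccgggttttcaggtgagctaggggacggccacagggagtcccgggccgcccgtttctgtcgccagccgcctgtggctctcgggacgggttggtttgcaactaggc
Sesn2, chr4:132510407-132510706, - strand: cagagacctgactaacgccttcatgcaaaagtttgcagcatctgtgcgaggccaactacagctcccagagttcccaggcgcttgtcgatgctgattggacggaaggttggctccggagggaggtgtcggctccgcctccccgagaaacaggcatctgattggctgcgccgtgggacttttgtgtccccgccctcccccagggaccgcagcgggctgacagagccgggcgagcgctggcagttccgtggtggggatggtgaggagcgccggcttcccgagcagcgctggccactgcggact
Ccng1, chr11:40755237-40755536, - strand: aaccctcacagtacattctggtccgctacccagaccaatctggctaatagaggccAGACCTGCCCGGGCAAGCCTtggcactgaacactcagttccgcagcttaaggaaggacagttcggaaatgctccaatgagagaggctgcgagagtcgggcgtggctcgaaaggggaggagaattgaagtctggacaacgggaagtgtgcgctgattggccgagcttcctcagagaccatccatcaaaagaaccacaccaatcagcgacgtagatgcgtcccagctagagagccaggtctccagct
Mdm2, chr10:117710709-117711008, - strand: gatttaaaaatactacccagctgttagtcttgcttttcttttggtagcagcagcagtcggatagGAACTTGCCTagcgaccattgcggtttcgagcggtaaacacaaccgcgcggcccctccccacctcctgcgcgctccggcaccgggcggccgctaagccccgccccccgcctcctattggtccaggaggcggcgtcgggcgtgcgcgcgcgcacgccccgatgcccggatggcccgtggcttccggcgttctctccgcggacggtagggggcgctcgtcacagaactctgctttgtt

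An exact match to the p53 decamer, whose consensus reads the same on both strands, stood in 5 of the 8 windows (4 of the 6 genes), while 8.36% of all 32851 annotated windows of this length held 1 or more. The match in Ccng1 was GGGCAAGCCT, from 185 to 176 bases before the start, and it followed directly on a second unit, giving the 20-base pair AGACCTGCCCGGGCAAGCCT with 1 mismatch to the full consensus. A pair with at most 2 mismatches was found in that 1 window of the 8, and in 0.797% of all windows. Mdm2 held GAACTTGCCT and Aen GGGCTTGTCC, the latter shared by the overlapping windows of its 2 annotated starts. Sesn1 held AAGCTTGTTT in 1 of its 2 windows. Sesn2 and Phlda3 held no exact match in these windows. The CCAAT box (CCAAT, both strands) was in 7 of the 8 windows and in 37.4% of all. The element bound by ATF4, searched as TGATGNAA on both strands, was in 0 of the 8 and in 3.97% of all. The gene with the closest pair, Ccng1, was not called. Of the called genes only Aen and Sesn2 had windows, Aen with an exact decamer and Sesn2 without. These are too few to set matches against calls. A match describes these letters and is not a binding site, and sequence outside the windows was not searched.

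On the arrays, 4 of the 9 target genes rose on the shHLX arrays (Zmat3, Trp53inp1, Sesn2 and Aen), 1 fell (Tnfrsf10b), and 4 did not pass the test (Mdm2, Sesn1, Ccng1 and Phlda3). A gene was called when its limma p, adjusted by the Benjamini-Hochberg method over all genes tested, was under 0.05. Of all genes, 6.18% were called, with 3.75% up and 2.43% down. For 7 of the 9 genes the groups had no overlap, against 26.2% of all genes. The median difference of the 9 was 0.18 on the log2 scale, and that of all genes was -0.01. The genes were picked with earlier results of these arrays known, so these shares describe them and test nothing.

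**Figure D1:**
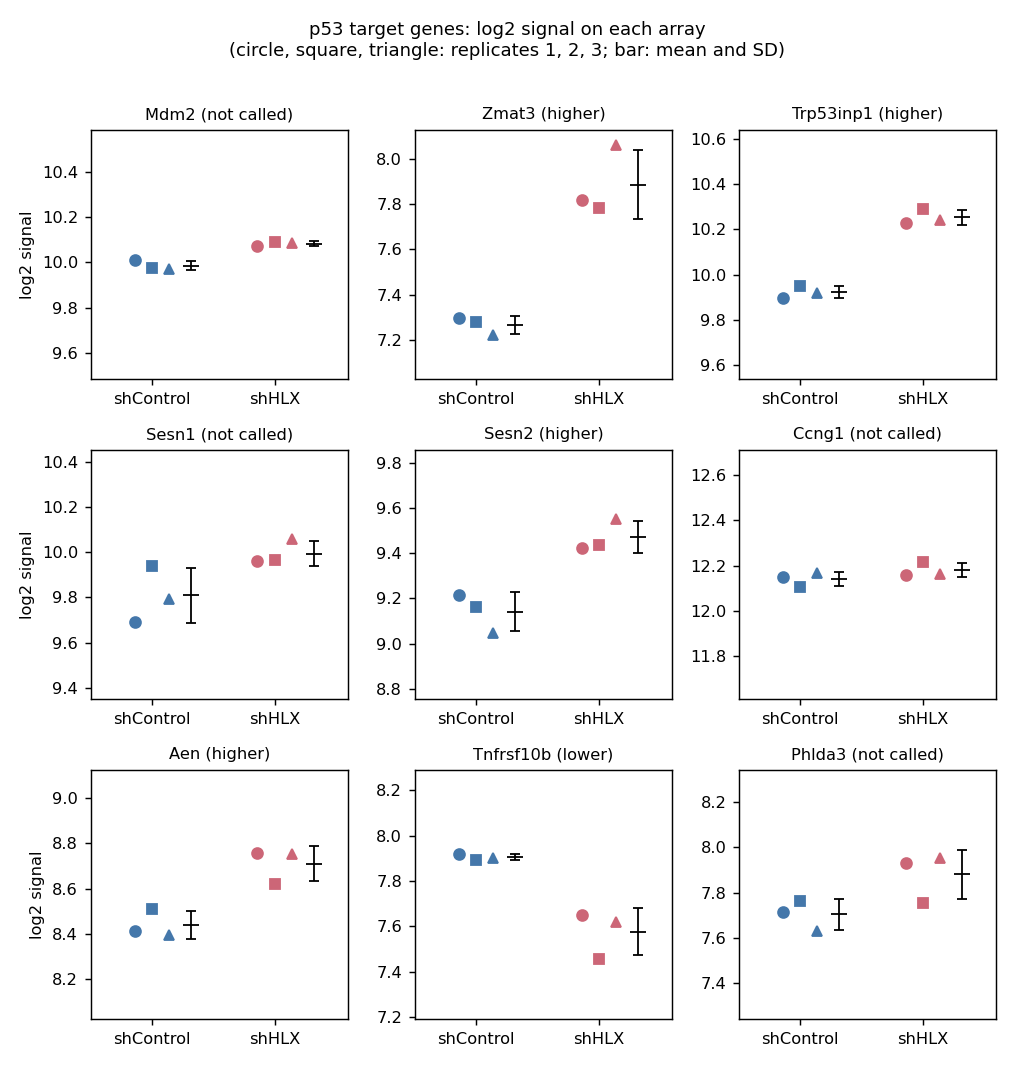
Log2 signal (vertical axis) of the 9 measured p53 targets on each of the 6 arrays, with shControl in blue and shHLX in red; the marker shape gives the replicate, and the black bar the group mean with its SD. Vertical axes do not start at 0 and cover equal spans. Zmat3, Trp53inp1, Sesn2 and Aen are higher on all 3 shHLX arrays and Tnfrsf10b is lower on all 3, while the groups overlap for Ccng1 and Phlda3.

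Zmat3 showed the largest change of the set. It encodes an RNA-binding zinc finger protein that regulates splicing and RNA stability downstream of p53. Its log2 signal was 7.30, 7.28 and 7.22 on the shControl arrays and 7.82, 7.78 and 8.06 on the shHLX arrays. There was no overlap, and shHLX 3 lay above the other shHLX arrays. The means were 7.27 ± 0.039 and 7.89 ± 0.15 (SD, n = 3 each), a 1.54-fold rise (limma adjusted p = 0.00254, 95% confidence interval 1.36 to 1.74).

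Without shHLX 3 the log2 difference of Zmat3 was 0.53, against 0.62 with all arrays, and limma called it whichever array was left out (adjusted p 0.00136 to 0.0169). Its probe set is 10497673 (Entrez gene 22401). Among genes outside the set, the 3 with the closest profile to Zmat3, as the root mean square difference of log2 values centred on the control mean over the 6 arrays, were Ap1s2 (0.034), Syne1 (0.045) and the homeobox gene Hoxb4 (0.052). They rose by 0.61, 0.61 and 0.59 on the log2 scale, and their match says only that the values run alike on these arrays.

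Trp53inp1 encodes a stress-induced nuclear protein that promotes p53 activity and also takes part in autophagy. Its log2 signal was 9.90, 9.95 and 9.92 on the shControl arrays and 10.23, 10.29 and 10.24 on the shHLX arrays (probe set 10503259). Replicates lay within a narrow band in both groups, far from overlap. The means of 9.92 ± 0.027 and 10.25 ± 0.032 (SD, n = 3 each) gave a 1.26-fold rise (limma adjusted p = 0.00328, 95% confidence interval 1.17 to 1.35). Trp53inp1 passed under all 15 alternatives tried, including each array left out (adjusted p 0.0108 to 0.0233), and was alone among the 9 genes in this.

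The sestrins are stress-induced proteins that restrain the growth kinase complex mTORC1 through the GATOR complexes, and Sesn2 also serves as a leucine sensor. Sesn2 gave a log2 signal of 9.21, 9.16 and 9.05 on the shControl arrays and 9.42, 9.43 and 9.55 on the shHLX arrays (probe set 10516932). Each shHLX value exceeded every control value, and shHLX 3 was the highest. The rise was 1.26-fold (limma adjusted p = 0.0178, 95% confidence interval 1.14 to 1.38). Leaving out shControl 2, shControl 3 or shHLX 1 ended the call (adjusted p = 0.0579, 0.0714 and 0.051).

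Sesn1 gave 9.69, 9.94 and 9.79 on the shControl arrays and 9.96, 9.96 and 10.06 on the shHLX arrays (probe set 10362811). The groups did not overlap, but shControl 2 came close to the shHLX values. The log2 difference of 0.18 (95% confidence interval 0.03 to 0.34, SE 0.068) did not pass (limma adjusted p = 0.189). Whether Sesn2 moved more than Sesn1 was asked with the difference between their log2 values on each array. It was -0.48, -0.78 and -0.75 on the shControl arrays against -0.54, -0.53 and -0.50 on the shHLX arrays, and shControl 1 lay above all 3 of the latter. An exact permutation test, two-sided, gave p = 0.4 for the shift of 0.14, and with 3 arrays a side it can go no lower than 0.1. The shift rested on single arrays: it was 0.24 without shControl 1, at the smallest p that split allows (exact permutation p = 0.1), and 0.090 without shControl 2 (0.6).

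Aen encodes an exonuclease that promotes cell death after p53 activation. Its log2 signal was 8.41, 8.51 and 8.39 on the shControl arrays and 8.76, 8.62 and 8.75 on the shHLX arrays (probe set 10554233). The groups were separate, though shControl 2 and shHLX 2 stood near each other. The 1.21-fold rise (95% confidence interval 1.10 to 1.32) had a limma adjusted p of 0.0323. It did not hold when shControl 1 (adjusted p = 0.0993), shControl 3 (0.136), shHLX 1 (0.119) or shHLX 3 (0.0947) was dropped.

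Tnfrsf10b was the 1 target that fell. It encodes the mouse death receptor for the ligand TRAIL, which triggers apoptosis through Fadd and caspase-8. The shControl arrays read 7.92, 7.89 and 7.90 on the log2 scale and the shHLX arrays 7.65, 7.46 and 7.62 (probe set 10416230). The control values were tightly grouped, and all 3 shHLX values lay below them, shHLX 2 the lowest. The shHLX signal was 79.5% of control (limma adjusted p = 0.0149), a log2 difference of -0.33 (95% confidence interval -0.47 to -0.19). The call ended without shControl 1, shControl 2 or shControl 3 (adjusted p = 0.0557, 0.0536 and 0.0678). The closest profiles outside the set were those of Thrsp, Trappc9 and Mrgpra1 (root mean square difference 0.041, 0.042 and 0.044), which fell by 0.34, 0.34 and 0.29 on the log2 scale. Mrgpra1 was dim, at 5.28 to 5.71, under the 25th percentile of signal (6.13). It lost its call without any 1 of 5 arrays, all but shHLX 1 (adjusted p up to 0.116). The call was also lost without variance moderation (0.125) and with the replicate block (0.0762).

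Mdm2 gave a log2 signal of 10.01, 9.98 and 9.97 on the shControl arrays and 10.07, 10.09 and 10.09 on the shHLX arrays (probe set 10372668). The groups did not overlap, yet the difference of 0.10 (95% confidence interval 0.0046 to 0.19) was small and did not pass (limma adjusted p = 0.236). The upper end of that interval is a 1.14-fold rise. Without variance moderation, where a gene's own small spread counts in full, it was called (adjusted p = 0.0483).

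Ccng1, which encodes cyclin G1, a protein that acts with a phosphatase on Mdm2, had a log2 signal of 12.15, 12.11 and 12.17 on the shControl arrays and 12.16, 12.22 and 12.16 on the shHLX arrays (probe set 10385271). The groups overlapped. The difference of 0.04 (95% confidence interval -0.06 to 0.14) did not pass (limma adjusted p = 0.659), and the interval reaches at most a 1.10-fold rise. Ccng1 is the gene whose window holds the printed 20-base pair.

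Phlda3 encodes a small pleckstrin homology protein that competes with the kinase Akt for membrane lipids. It gave 7.72, 7.76 and 7.63 on the shControl arrays and 7.93, 7.75 and 7.95 on the shHLX arrays (probe set 10350146). shHLX 2 lay among the control values, so the groups overlapped. The log2 difference was 0.18 (limma adjusted p = 0.195, 95% confidence interval 0.02 to 0.33).

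**Figure D2:**
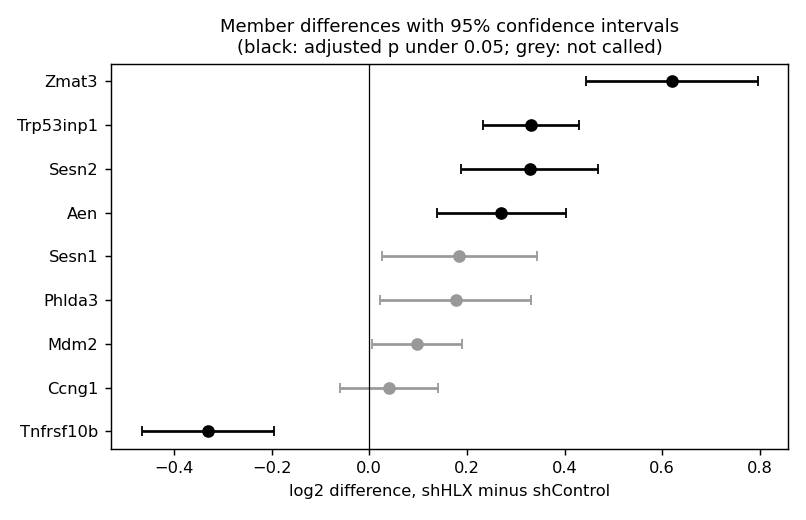
Difference of the log2 signal, shHLX minus shControl (horizontal axis), for the 9 targets with limma's 95% confidence interval as bars; black marks genes called at an adjusted p under 0.05 and grey the others. Zmat3 stands farthest to the right at 0.62, Tnfrsf10b alone lies left of 0 at -0.33, and the interval of Ccng1 includes 0.

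The calls differed in how often they held with 1 array left out, which also leaves fewer degrees of freedom. A lost call did not always go with a smaller difference. Without shControl 1, shControl 2 or shControl 3, Tnfrsf10b had log2 differences of -0.32, -0.34 and -0.33, against -0.33 with all arrays. Sesn2 had 0.35 without shHLX 1, against 0.33 with all arrays. Zmat3 and Trp53inp1 were called whichever array was left out, Sesn2 and Tnfrsf10b in 3 of the 6 cases and Aen in 2. Arrays shControl 1 and shHLX 3 stood apart from the rest on the second principal component of all genes (9.53 and 9.10, the others from -9.04 to -0.64, with 18.1% of the variance), and the labels name no batch. Of the 5 called targets, Zmat3, Trp53inp1 and Sesn2 were also called without both of these arrays, while Aen (adjusted p = 0.171) and Tnfrsf10b (adjusted p = 0.0672) were not. Without limma's moderation of the variance, Trp53inp1 stayed called, and Zmat3 (adjusted p = 0.0527), Sesn2 (0.0937), Aen (0.112) and Tnfrsf10b (0.0843) did not. When the variance was modelled with a trend on intensity, Sesn1 was called as well (adjusted p = 0.0446).

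**Figure D3:**
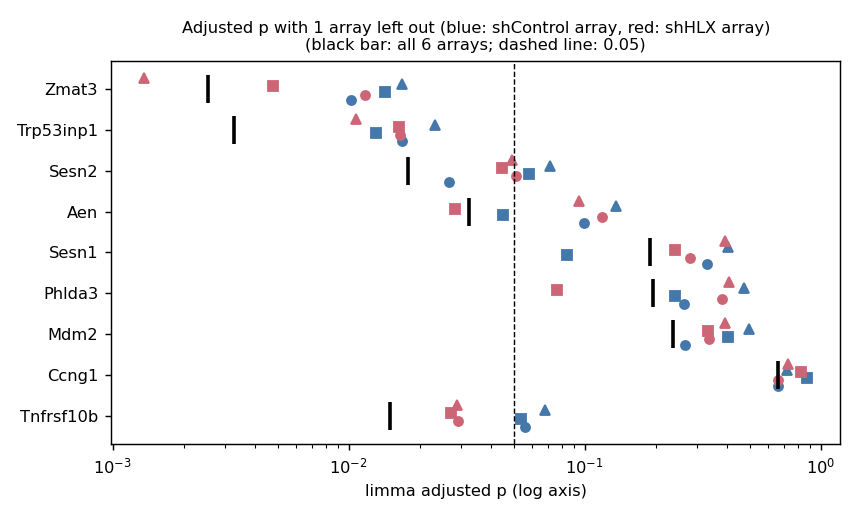
Limma adjusted p (horizontal log axis) of each target when 1 array was left out, blue for a shControl and red for a shHLX array, with the marker shape giving the replicate; the black bar is the value with all 6 arrays and the dashed line is 0.05. All 6 markers of Zmat3 and Trp53inp1 lie left of the line, and those of Sesn2, Aen and Tnfrsf10b fall on both sides.

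The paralogs of these genes were read next, to see whether the changes were shared within families. Of 17 paralogs, 4 rose (Trp63, Isg20, Sesn3 and Ccng2) and 13 did not pass, while 3.75% of all genes were called higher. The largest change was that of Trp63, which encodes the p53 family member p63, known for its work in epithelia and germ cells. Its log2 signal was 7.82, 7.82 and 7.93 on the shControl arrays and 9.15, 9.23 and 9.09 on the shHLX arrays. The groups were far apart. The rise was 2.47-fold (limma adjusted p = 1.12e-05, 95% confidence interval 2.26 to 2.70), and it passed under all 15 alternatives. The probe set does not tell which p63 form is measured. Trp73, the third gene of the p53 family, gave 7.02, 7.05 and 7.16 against 6.90, 6.84 and 6.85 and did not pass (log2 difference -0.21, limma adjusted p = 0.0539), though it was called among the genes above the 25th percentile of signal (0.0312).

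Sesn3, the third sestrin gene, rose from 8.13, 8.19 and 8.31 to 8.55, 8.56 and 8.52, a 1.26-fold change (limma adjusted p = 0.0120, 95% confidence interval 1.15 to 1.38). The groups did not overlap, and the call was lost without shControl 2 or shHLX 1 (adjusted p = 0.0521 and 0.0577), without both shControl 1 and shHLX 3 (0.0527) and without variance moderation (0.0713). Ccng2, which encodes cyclin G2, rose 1.19-fold (limma adjusted p = 0.0458), and 5 of the 6 left-out arrays ended that call (all but shControl 1, adjusted p up to 0.177), as did the replicate block (0.126) and the fit without variance moderation (0.136). In the 4 settings that ended the call of Sesn3, 2 paralogs were called higher. The paralogs of Zmat3, Trp53inp1 and Phlda3 in the list did not pass, with log2 differences such as -0.05 for Zmat1, 0.09 for Zmat2, -0.02 for Trp53inp2, 0.10 for Phlda1 and -0.07 for Phlda2. The receptor genes Tnfrsf22 (0.003) and Tnfrsf23 (-0.05) in the list did not pass either. The receptor gene Tnfrsf26, which was placed among the other p53 targets below and not in this list, rose (0.33, limma adjusted p = 0.00733).

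Isg20, an exonuclease gene of the same family as Aen, rose 1.59-fold, from 9.05, 8.99 and 9.25 to 9.96, 9.69 and 9.63 (limma adjusted p = 0.00709, 95% confidence interval 1.35 to 1.87). All shHLX values were above the control values, shHLX 1 the most. Without variance moderation Isg20 was not called (adjusted p = 0.0925). Isg20 is also the measured protein-coding gene that follows Aen on the chromosome in the RefSeq order of assembly GRCm38.p6. Of the 18 measured genes that flank the 9 targets on either side, Isg20 alone was called, a share close to the 6.18% of all genes.

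**Figure D4:**
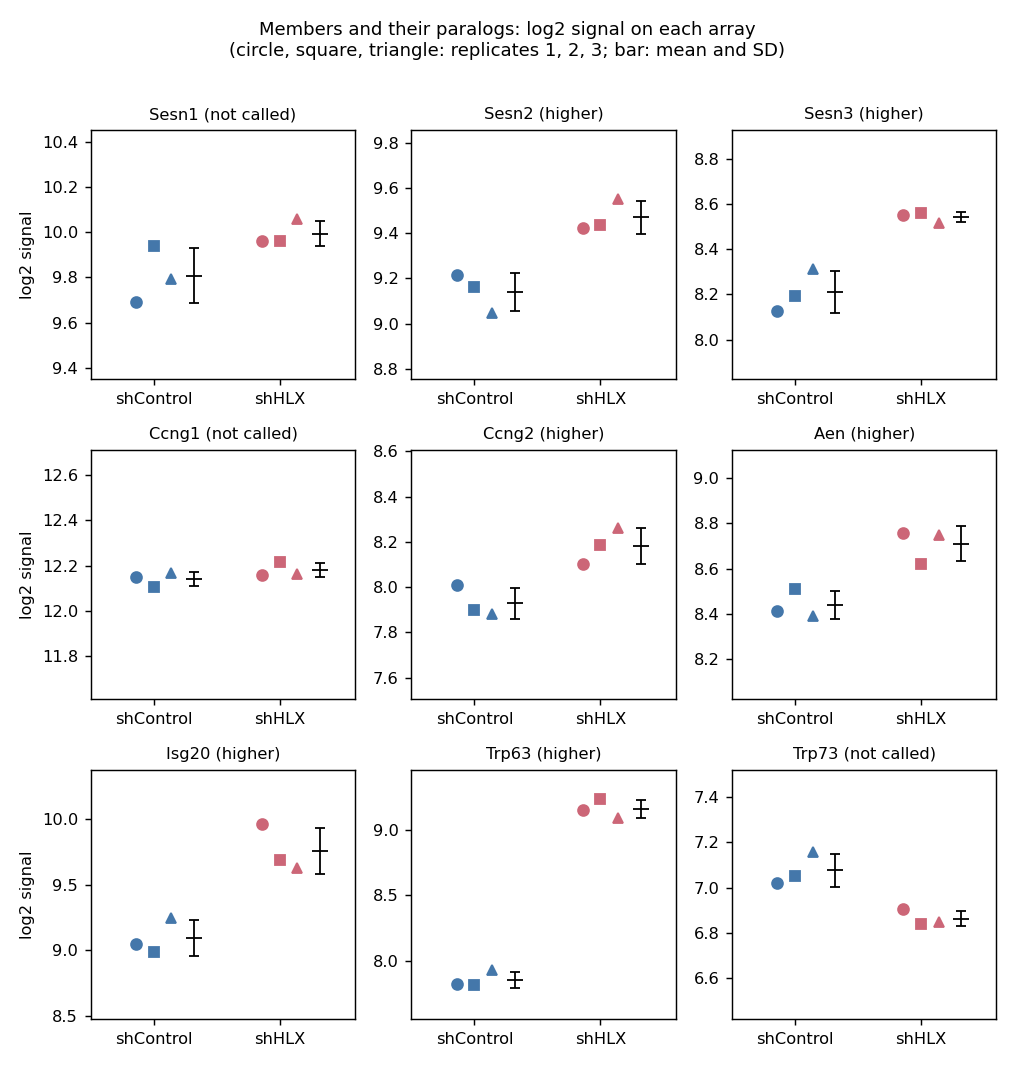
Log2 signal (vertical axis) on each array of the sestrin genes, the cyclin G genes, Aen and Isg20, and the p53 relatives Trp63 and Trp73, with shControl in blue, shHLX in red, marker shape for the replicate and a black bar for the mean with its SD. Vertical axes do not start at 0, and those of Isg20 and Trp63 cover a wider span. Trp63 shows the widest gap, 7.85 against 9.16 in the means, while Ccng1 overlaps between the groups.

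Other known p53 targets were mostly not called. Of the 44 listed, Cdkn1a, Bax and Gdf15 had no probe set of 1 symbol, so nothing is said of them here. Of 41 measured, 5 rose and 1 fell, or 14.6% against the 6.18% of all genes. Their median log2 difference was 0.01. Among 19 genes of arrest and repair, the stress gene Gadd45a (1.47-fold, limma adjusted p = 0.000489), the antiproliferative gene Btg2 (1.24-fold) and the adenylate kinase gene Ak1 (1.21-fold) rose and 16 did not pass. Gadd45a gave 9.08, 9.06 and 9.15 against 9.64, 9.60 and 9.71, with no overlap, and was called under all 15 alternatives. Ak1 was lost without shControl 2 or shControl 3 (adjusted p = 0.0536 and 0.0675) and with the replicate block (0.0525), and Btg2 without both shControl 1 and shHLX 3 (0.0502). Tigar, a regulator of glycolysis, had a log2 difference of 0.19 and was not called (limma adjusted p = 0.118, and called at 0.0363 with the intensity trend).

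Of 22 targets of death and signalling, the receptor gene Tnfrsf26 (1.25-fold) and the mTORC1 inhibitor gene Ddit4 (1.14-fold) rose, Bid fell and 19 did not pass. Bid links death receptors to mitochondria, and its log2 signal went from 9.81, 9.89 and 9.94 to 9.08, 9.08 and 9.01, a difference of -0.83 (SE 0.050, limma adjusted p = 6.93e-05). No values overlapped, and the call held under all 15 alternatives. Ddit4 was lost without any single one of the 6 arrays (adjusted p 0.0715 to 0.189), with a further quantile normalization (0.0705), without variance moderation (0.0621) and with the replicate block (0.141). Triap1, which encodes a survival factor, had a log2 difference of 0.25 and was not called (limma adjusted p = 0.0780). With the intensity trend Triap1 was called (adjusted p = 0.00947), and the list then had 4 genes higher and 2 lower.

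In TRAIL and death receptor signalling, the pathway of Tnfrsf10b, 12 of 13 genes did not pass and Bid fell, so that the called share is close to the 6.18% of all genes. The ligand gene Tnfsf10 (0.08), Fadd (0.03), Casp8 (0.01) and the inhibitor gene Cflar (0.05) had small log2 differences and were not called, and neither were Birc3 (0.24, limma adjusted p = 0.0765) or Birc2 (0.08). Birc3 was called among genes above the 25th percentile of signal (adjusted p = 0.0484) and with the intensity trend (0.0164).

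Of 29 genes that regulate p53, Trp63, counted here too, and the methyltransferase gene Setd7 (1.16-fold, limma adjusted p = 0.0282) rose and 27 did not pass. That called share is close to the 6.18% of all genes. Setd7 was lost without any single one of the 6 arrays (adjusted p 0.0702 to 0.0881) and with the replicate block (0.0855), which left 1 called gene in the list. With the intensity trend 6 of the list were called higher, among them Atm. This kinase gene had a log2 difference of 0.17 (limma adjusted p = 0.0890, and 0.0481 with the trend), Mdm4, the partner of Mdm2, one of -0.002, and Cdkn2a, whose Arf product restrains Mdm2, one of -0.10 (limma adjusted p = 0.991 and 0.327 for the last 2). The list's median was 0.05.

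Around the sestrins, of 21 genes of the GATOR and mTORC1 pathway the kinase gene Prkaa1, which encodes a catalytic subunit of AMPK, rose by 0.24 on the log2 scale (limma adjusted p = 0.0122) and the GTPase gene Rraga 1.16-fold (limma adjusted p = 0.0417), with 19 not passing. Over all genes, 6.18% were called. The GATOR genes Mios (0.24) and Wdr59 (-0.17) were not called (limma adjusted p = 0.0792 and 0.110). With the intensity trend both were (0.0272 and 0.0457), and the list had 4 genes higher and 2 lower. Rraga was lost without any single one of the 6 arrays (adjusted p 0.0505 to 0.130), and Prkaa1 without shControl 3 (0.0694), with the replicate block (0.0631) and without both shControl 1 and shHLX 3 (0.0729). Neither gene was called in these last 3 settings, which left 0 called higher in the list.

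Of 17 ATF4 and integrated stress genes, the cystine transporter gene Slc7a11 (1.29-fold, limma adjusted p = 0.00604) and Ddit4 rose, the serine synthesis gene Phgdh fell (-0.61, limma adjusted p = 0.000821) and 14 did not pass. Over all genes 6.18% were called, a smaller share than in this list. Atf4 itself had a log2 difference of 0.05 and Atf5 one of 0.21 (limma adjusted p = 0.534 and 0.0580). Atf5 was called with each array centred on its median (adjusted p = 0.0424), above the 25th percentile of signal (0.0339) and with the intensity trend (0.0300), under which 4 genes of the list were higher. With Ddit4 lost, as above, 1 was higher when any array was left out. Of 19 cell cycle genes that p53 lowers through the DREAM repressor complex, the spindle checkpoint gene Bub1b fell (-0.62, limma adjusted p = 0.000244) and 18 did not pass, among them Chek1 (-0.11), Kif23 (-0.11) and Prc1 (0.13). The called share of that list is close to the 6.18% of all genes, and its median was -0.02.

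**Figure D5:**
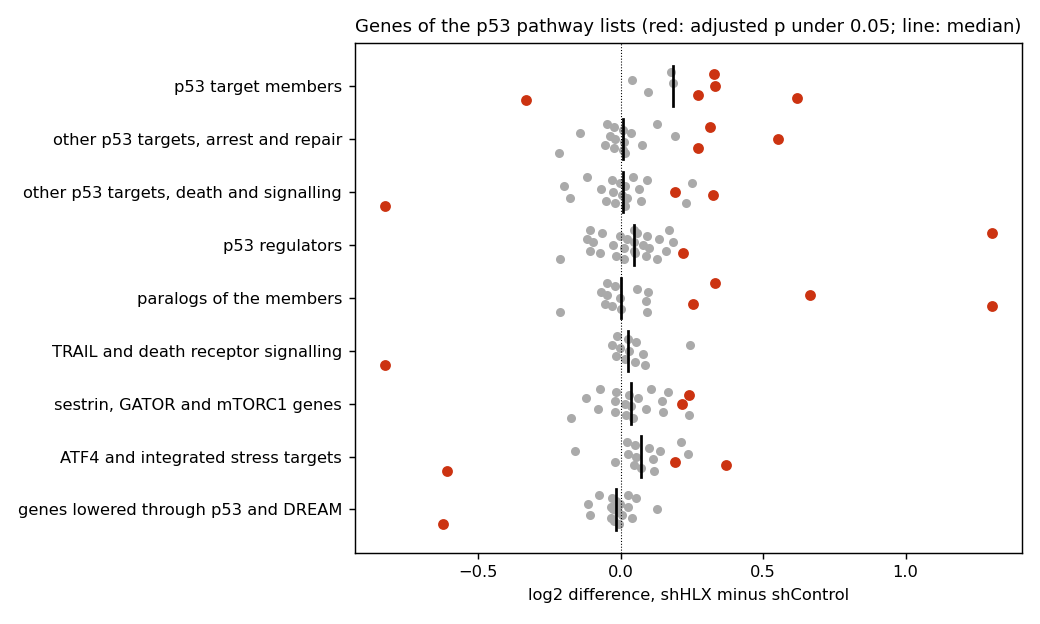
Log2 difference, shHLX minus shControl (horizontal axis), of each measured gene in the p53 targets described here and 8 lists around them; red points were called at an adjusted p under 0.05, grey points were not, the black line is the list's median, and vertical scatter within a list is for display. The medians of the 8 other lists lie between -0.02 and 0.07, against 0.18 for the 9 targets, and Trp63 at 1.30 and Bid at -0.83 are the outermost points; a gene in several lists is drawn in each.

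Checks of the arrays bear on all these values. Hlx itself was at 10.21, 10.12 and 10.20 on the shControl arrays and 10.08, 10.06 and 10.17 on the shHLX arrays and was not called (limma adjusted p = 0.479), so a knockdown is not seen at the transcript level and the group direction rests on the labels. Of 16 genes of myeloid leukaemia cells, Ms4a3 (-3.45), Mpo (-1.46) and Kit (-0.73) fell, Cd33 (2.14), Itgam (0.75) and Lyz2 (0.39) rose, and 10 did not pass. Over all genes 6.18% were called, a smaller share than in this list. Mpo was not called without variance moderation (adjusted p = 0.0558), and Ptprc, the pan-leukocyte gene, was dim at 5.93 to 6.14. Of the lymphoid markers 0 of 11 passed limma (0 at an unadjusted p under 0.05 and 0 without variance moderation), with a summed log2 level of 9.81 to 9.95 on the shControl arrays and 9.72 to 9.88 on the shHLX arrays. Of the erythroid and megakaryocyte markers 0 of 8 passed limma (1 at an unadjusted p under 0.05, 0 without variance moderation, and Epor, downwards, among genes above the 25th percentile of signal), with a summed level of 9.76 to 9.81 against 9.64 to 9.73. Of 14 stromal and endothelial markers, Cdh5 (-2.68) fell and Acta2 (0.92) rose, also a larger share than the 6.18% of all genes. Their summed levels were 11.49 to 11.53 and 11.41 to 11.58. The part of these shifts in the target genes was not tested, and in bulk RNA a change in the share of cells and a change in RNA per cell cannot be told apart.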

How the data were processed

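The deposited values are log2 signals, 1 column per array and 1 row per probe set. The authors' values come from RMA (background correction, quantile normalization and probe summary) and Affymetrix Power Tools 1.178, per the submitters' processing notes; per the labels' protocols, 10 ng of RNA was amplified before labelling. The sources used here do not define the probe sets, and no detection values were used, so which dim signals lie above background is unknown and folds of dim genes may be understated. Of 35556 probe sets, the platform annotation gave 1 symbol to 21789, several to 1621 and none to 12146; only the first kind was used. A gene with several (999 genes) took the brightest, giving 19938 genes.

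The 2 groups were set against each other by limma 3.58.1 (lmFit and eBayes, two-sided, no covariates) under R 4.3.3, with Benjamini-Hochberg adjustment over all genes and a threshold of 0.05. The number of arrays limits the precision; the replicate SD of the median gene was 0.073. On simulated data for the 19938 genes a log2 change of 0.3 was recovered for 46% of changed genes, 0.6 for 82%, 1 for 98% and 2 for 100%, with 6 false calls. The simulation changed 50 genes at each size, a smaller share than was called on the arrays. It took each gene's SD from these arrays, so recovery in the real data may differ.

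The members, lists and tests were chosen with earlier results of these data known. Named were all members, Hlx, up to 4 genes of each list with the smallest p, the 3 closest profiles of the largest riser and faller (predicted, olfactory, vomeronasal and small RNA genes passed over); other genes named were chosen after their values were seen. Promoter sequences are RefSeq's, build GRCm38.p6. The plots were made in Python 3.11.15 using matplotlib 3.10.9. Alternatives were a further quantile normalization, median centring, a filter at the 25th percentile of signal, an intensity trend, no variance moderation, averaging the probe sets of a gene, every probe set tested, the replicate block, and each array left out; leaving out both shControl 1 and shHLX 3 was added after seeing the data.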

Additional observations from a re-analysis of the deposited data

How the results depend on the processing

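The 9 targets kept their direction under all 15 alternatives, and 7 or 8 of them had groups that did not overlap. Many alternatives could not turn a direction. With 1 probe set per target, the filter, the variance settings, the probe set settings and the replicate block leave the difference unchanged. Where groups do not overlap, leaving out arrays cannot reverse it. Non-overlap over all genes (26.2%) was counted only in the main fit, and fewer arrays separate more easily. With 1 array left out, 2 to 4 targets were called higher and 0 or 1 lower, and over all genes 441 to 544 were called higher and 257 to 369 lower, against 748 and 485. The counts moved by over 1.5 times without shControl 2 (281 lower), shControl 3 (441 higher and 257 lower) or shHLX 1 (490 higher and 276 lower). With an intensity trend 1437 and 824 genes were called, and Sesn1 joined the calls (adjusted p = 0.0446). Without variance moderation 306 genes were called lower, and 2 targets were called higher (Trp53inp1 and Mdm2) and 0 lower; Zmat3 then had an adjusted p of 0.0527. With the replicate block 497 genes were called higher and 303 lower, and 2 targets higher (Zmat3 and Trp53inp1; Sesn2 0.0669, Aen 0.101). The deviations of same-numbered arrays correlated at -0.17, 0.13 and -0.15, and those of the other pairs at -0.25 to 0.34. Whether the replicate numbers pair the arrays is not given by the labels, and these few correlations cannot settle it. Without both shControl 1 and shHLX 3, 459 genes were called higher and 282 lower, and 0 targets lower. Cd79a, a lymphoid marker that was not called, changed sign with 1 array left out (-0.16 to 0.027). The causes were not tested. Fewer arrays by themselves leave fewer degrees of freedom. No detection values were used here, so signal over background limits what can be said of dim genes.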
